A study of Mus musculus with 24 samples.

Results

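The genes described here are those of the autophagy pathway that the kidney arrays measured, with the protease gene *Atg4a* among them. They were chosen by symbol: every probe set annotated with a single symbol for an Atg gene, an LC3 (*Map1lc3*) or GABARAP gene, *Ulk1* to *Ulk4*, *Wipi1* or *Wipi2*, or a short list of partners such as *Sqstm1*, *Nbr1*, *Rb1cc1*, *Pik3c3*, *Tfeb*, *Lamp1* and *Lamp2*. This gave 38 genes on 43 probe sets, of 18782 genes with a probe set of their own, and the probe set with the highest mean stood for each gene. *Becn1* and *Atg4d* lay only on probe sets annotated with several symbols, and *Optn* had no probe set by this rule, so these 3 were not measured here.

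Kidneys came from 12 week old BPH/2J females, BPN/3J females, BPH/2J males and BPN/3J males, with 6 mice per group and 1 Affymetrix Mouse Gene 1.0 ST array per mouse. BPH/2J (labelled hypertensive) and BPN/3J (labelled normotensive) are inbred mouse lines bred selectively for high and for normal blood pressure, and no mouse was treated. The array mice have no pressure readings of their own. On the arrays the study compared the strains within each sex. It compared the sexes within each strain by quantitative PCR of selected genes, so the array comparisons of the sexes given here are not the study's own.

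Autophagy is the process by which a cell wraps part of its own cytoplasm in a double membrane, the autophagosome, and delivers it to the lysosome for breakdown. A kinase complex around Ulk1 starts it, a lipid kinase complex around Pik3c3 marks the membrane, and lipid carriers extend it. A ubiquitin-like conjugation chain then attaches the Atg8 proteins (the LC3 and GABARAP proteins) to the membrane, after Atg4 proteases have trimmed their ends. In the mouse kidney the pathway is best known from podocytes and proximal tubule cells, where deletion of *Atg5* harms the cells.

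All values are robust multiarray average (RMA) expression on the log2 scale, so a difference of 1 is a doubling. Array medians were 6.89 to 6.97, and arrays of one group correlated at r = 0.981 to 0.997 across probe sets. A gene was called at a Benjamini-Hochberg adjusted p under 0.05 from limma over all 28853 probe sets, and the number of arrays limits the precision. Kidney markers were present in all groups: the mean of 7 proximal tubule genes was 12.66 to 12.83. Transcripts of other organs varied between arrays. The mean of 20 hepatocyte genes reached 11.13 and 11.46 in BPN/3J female arrays 2 and 5, against 6.12 to 8.95 in the other arrays. For 8 adrenal cortex genes the mean went as low as 5.37 and as high as 10.23 over all arrays.

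*Atg4a*, on the X chromosome (GRCm38.p6, chrX:140953845-141164194), was the member with by far the largest strain difference. Its expression in females was 6.55 to 6.91 (median 6.74) in BPH/2J, against 9.74 to 10.02 (median 9.99) in BPN/3J. In males it was 6.86 to 7.32 (median 7.10) in BPH/2J, against 10.47 to 10.82 (median 10.62) in BPN/3J. Every BPH/2J array lay far below every BPN/3J array of either sex. The BPH/2J levels lay around the array medians of 6.89 to 6.97, and signal at that level was not separated from background.

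The fall in BPH/2J females was 9.12-fold, or −3.19 on the log2 scale (standard error 0.0659, adjusted p = 6.51e-12 from limma), and in BPH/2J males it was 11.8-fold (−3.56, standard error 0.0862, adjusted p = 6.54e-12 from limma). Among all 28853 probe sets this was the fall of rank 4 in females and of rank 3 in males. In bulk kidney RNA, fewer cells that express a gene and less RNA per cell cannot be told apart. Whether the probes match the sequence of both strains alike was not tested. With the hepatocyte and adrenal cortex means as covariates the log2 fold changes were −3.23 and −3.55.

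A second probe set carries the *Atg4a* symbol alone. In females it read 6.56 to 6.84 in BPH/2J, against 9.47 to 9.75 in BPN/3J. In males it read 6.89 to 7.38 in BPH/2J, against 10.18 to 10.55 in BPN/3J. Its log2 fold changes were −2.92 (standard error 0.0606) in females and −3.29 (standard error 0.0858) in males. RefSeq also lists a copy, *Atg4a-ps*, annotated as a pseudogene on chromosome 3 (chr3:103643953-103646068), and the annotation used here does not say which locus each probe set reads. The values of *Atg4a* may therefore include signal from that copy, and the 2 probe sets are not shown to be independent readings. The number of the second, 10602090, lies between those of *Vsig1* (10602081) and *Col4a5* (10602105), neighbours of *Atg4a* on the X chromosome. The number of the probe set that stands for the gene, 10500802, does not. Which locus each one reads was not tested.

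**Figure D1:**
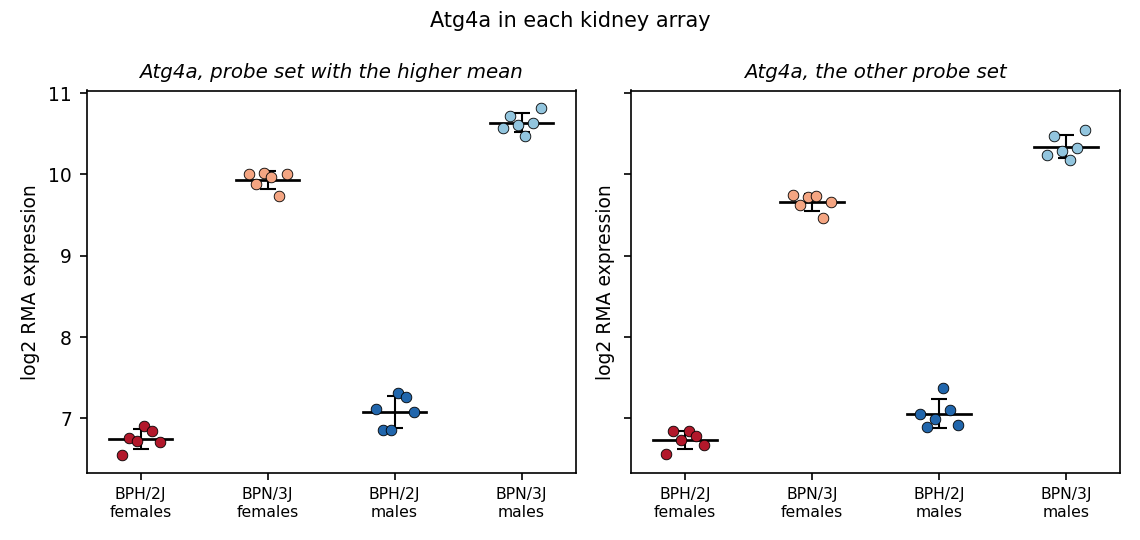
Log2 RMA expression of *Atg4a* in each array on its 2 probe sets (left and right panel), by group, with 6 mice per group. Each point is 1 mouse, and lines and bars are the group mean and SD. BPH/2J arrays lie between 6.55 and 7.38 on either probe set, and BPN/3J arrays between 9.47 and 10.82.

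The other Atg4 proteases showed no such difference between strains. *Atg4b* (chr1:93754905-93789606), the protease with the broadest activity on Atg8 proteins in human cells, was 8.05 to 8.30 (median 8.22) in BPH/2J females, against 7.98 to 8.30 (median 8.15) in BPN/3J females. In males it was 8.31 to 8.65 (median 8.45) in BPH/2J, against 8.30 to 8.48 (median 8.45) in BPN/3J. *Atg4c* (chr4:99189159-99297258) was 8.58 to 8.71 (median 8.67) in BPH/2J females, against 8.51 to 8.70 (median 8.62) in BPN/3J females. It was 8.58 to 8.77 (median 8.64) in BPH/2J males, against 8.48 to 8.76 (median 8.73) in BPN/3J males.

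For both genes the strains overlapped in each sex. The log2 fold changes of *Atg4b* were 0.04 in each sex (standard error 0.0614 in females and 0.0578 in males, adjusted p = 0.741 and 0.735 from limma). Those of *Atg4c* were 0.04 in females (standard error 0.0405, adjusted p = 0.557 from limma) and −0.03 in males (standard error 0.0529, adjusted p = 0.824 from limma).

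The genes around *Atg4a* on the X chromosome did not share the size of its difference on either of its probe sets. Among the 10 nearest genes on each side with a probe set of their own, 3 of 20 were called in females and 4 of 20 in males, all lower in BPH/2J, and 1 of them was called in both. Of all probe sets, 6.48% were called lower in BPH/2J females and 7.7% in BPH/2J males. *Psmd10*, a chaperone of proteasome assembly whose RefSeq span overlaps the start of *Atg4a*, had a log2 fold change of 0.04 in females (adjusted p = 0.629 from limma) and fell by 0.24 in males (standard error 0.0543, adjusted p = 0.00859 from limma). On the other side, *Col4a6*, a collagen chain of basement membranes, had log2 fold changes of 0.04 and 0.05.

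The gene called in both sexes was *Tsc22d3*, a glucocorticoid-induced leucine zipper gene 0.414 Mb before *Atg4a*, with log2 fold changes of −0.26 in females and −0.35 in males. The largest difference among these neighbours was that of *Nup62cl* in females, at −0.91 (standard error 0.124, adjusted p = 0.000205 from limma), against −0.05 in males (adjusted p = 0.828 from limma). Over the 20 neighbours the log2 fold changes ran between −0.91 and 0.16 in females and between −0.39 and 0.12 in males.

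**Figure D2:**
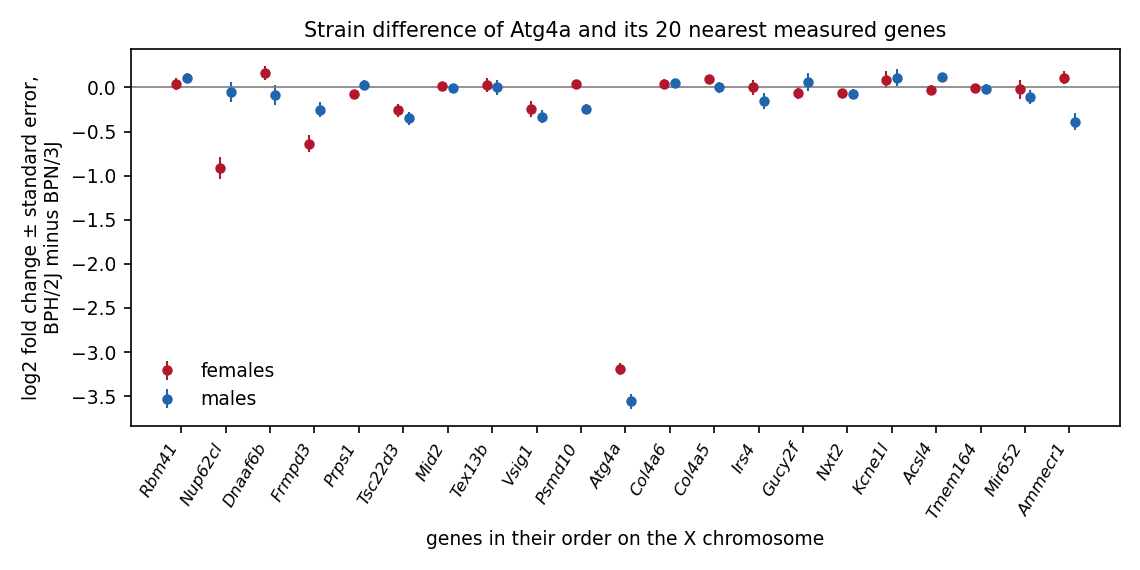
Log2 fold change (BPH/2J minus BPN/3J, with its standard error, 6 mice per group) of *Atg4a* and of its 20 nearest measured genes, in their order along the X chromosome, in females and males. *Atg4a*, on its probe set with the higher mean, stands at −3.19 and −3.56, and every neighbour lies between −0.91 and 0.16. Its other probe set, at −2.92 and −3.29, is numbered among those of the neighbours and is not drawn. Which locus each probe set reads was not tested.

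The promoters of 4 members that the results turn on are shown for comparison, each from RefSeq (GRCm38.p6) as 300 bases that run from 250 bases before to 50 bases after the annotated start, on the gene's own strand. Capitals mark CACGTG, the core of the E-box that the autophagy and lysosome factor Tfeb can bind, searched on both strands (it is its own reverse complement). *Atg4a* and *Ulk1* were the members called between strains in both sexes, *Lamp1* held the most copies of the motif, and *Atg3* was called in several comparisons and held the motif too. RefSeq gives *Atg4a* a second start, whose window holds no CACGTG.
Atg4a promoter, chrX:140956657-140956956, plus strand: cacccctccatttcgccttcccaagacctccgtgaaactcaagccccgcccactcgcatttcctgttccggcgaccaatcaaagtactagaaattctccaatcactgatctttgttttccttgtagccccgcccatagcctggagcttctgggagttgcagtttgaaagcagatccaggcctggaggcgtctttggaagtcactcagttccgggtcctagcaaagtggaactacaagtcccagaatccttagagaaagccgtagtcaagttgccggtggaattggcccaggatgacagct
Ulk1 promoter, chr5:110810032-110810331, minus strand: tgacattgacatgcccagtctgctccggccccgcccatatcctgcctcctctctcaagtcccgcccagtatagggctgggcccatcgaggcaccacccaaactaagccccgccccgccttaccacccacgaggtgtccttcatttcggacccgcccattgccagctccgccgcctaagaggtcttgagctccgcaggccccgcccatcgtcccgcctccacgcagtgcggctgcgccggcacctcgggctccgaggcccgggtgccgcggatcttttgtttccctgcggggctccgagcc
Atg3 promoter, chr16:45158579-45158878, plus strand: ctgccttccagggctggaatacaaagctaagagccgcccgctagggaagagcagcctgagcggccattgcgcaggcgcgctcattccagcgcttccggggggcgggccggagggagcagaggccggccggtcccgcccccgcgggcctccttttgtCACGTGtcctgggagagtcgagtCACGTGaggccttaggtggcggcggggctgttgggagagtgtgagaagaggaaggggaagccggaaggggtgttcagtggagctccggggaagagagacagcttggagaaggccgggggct
Lamp1 promoter, chr8:13158911-13159210, plus strand: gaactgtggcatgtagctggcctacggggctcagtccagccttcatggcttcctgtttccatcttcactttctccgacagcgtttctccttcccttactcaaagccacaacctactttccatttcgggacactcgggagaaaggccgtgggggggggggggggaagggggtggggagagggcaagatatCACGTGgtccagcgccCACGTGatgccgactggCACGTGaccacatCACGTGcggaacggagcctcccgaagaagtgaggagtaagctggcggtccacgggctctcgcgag

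Promoter windows were found for 33 of the 38 members, 38 windows in all. CACGTG was present in 5 of these windows (13.2%), those of *Atg14*, *Atg3*, *Atg5*, *Atg7* and *Lamp1*, against 7.15% of all 32851 RefSeq windows of the same length. A match describes the letters only.

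Between strains, 4 of 38 members were called in females, 1 higher and 3 lower in BPH/2J. Over all probe sets 8.01% were called higher and 6.48% lower in BPH/2J females, against 2.63% and 7.89% of the members. In males 4 of 38 were called, 2 higher and 2 lower, or 5.26% of the members each way, where 7.48% of all probe sets were called higher and 7.7% lower. At the Bonferroni threshold of the study's methods, *Atg4a* was the only member called in either sex, where 2.36% of all probe sets were called in females and 2.56% in males. The median log2 fold change of the members was −0.00325 in females, against 0.0153 over all probe sets, and −0.00683 in males. Apart from *Atg4a*, the members ran between −0.16 and 0.35 in females and between −0.32 and 0.33 in males.

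*Ulk1* (chr5:110784489-110810120), the kinase that starts autophagosome formation, was the other member called in both sexes, in the opposite direction to *Atg4a*. It was 9.79 to 9.88 (median 9.80) in BPH/2J females, against 9.34 to 9.73 (median 9.46) in BPN/3J females. It was 9.84 to 10.02 (median 9.93) in BPH/2J males, against 9.49 to 9.66 (median 9.60) in BPN/3J males. All BPH/2J arrays lay above all BPN/3J arrays of the same sex.

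On the log2 scale *Ulk1* rose by 0.35 in females (standard error 0.0585, adjusted p = 0.0012 from limma) and 0.33 in males (standard error 0.0453, adjusted p = 0.000163 from limma). The other members of the initiation kinase complex were called in neither sex. These are *Ulk2*, a kinase close to *Ulk1*, and the subunits *Atg13*, *Atg101* and *Rb1cc1* (which encodes FIP200), with log2 fold changes of −0.12 to 0.01 in females and −0.09 to 0.07 in males. The related kinase genes *Ulk3* and *Ulk4* were not called either, at −0.06 and 0.10 in females and 0.03 and −0.03 in males.

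No gene of the lipid kinase complexes (*Pik3c3*, *Pik3r4*, *Atg14*, *Uvrag* and *Ambra1*) was called between strains, with log2 fold changes of −0.11 to 0.14 over both sexes. Nor was any of the 6 genes for membrane supply and lipid binding. *Atg9a*, whose product scrambles lipids in the vesicles that seed the membrane, came nearest among these, at −0.12 in females (adjusted p = 0.0611 from limma) and −0.11 in males (adjusted p = 0.0773 from limma).

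Of the 7 conjugation genes, *Atg3* was called, in females. *Atg3* (chr16:45158829-45188538), the E2-like enzyme that passes Atg8 proteins to membrane lipid, was 9.98 to 10.06 (median 9.99) in BPH/2J females, against 10.05 to 10.25 (median 10.17) in BPN/3J females. Its levels in males were 10.32 to 10.44 (median 10.39) in BPH/2J, against 10.37 to 10.52 (median 10.46) in BPN/3J. The strains overlapped at 1 BPH/2J array in females and widely in males.

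*Atg3* fell by 0.16 in BPH/2J females (standard error 0.0393, adjusted p = 0.0156 from limma). Without BPN/3J female arrays 2 and 5, the arrays with most hepatocyte transcript, it was −0.14 and was no longer called (adjusted p = 0.0783 from limma). In males it was −0.07 (standard error 0.038, adjusted p = 0.286 from limma). The other 6 conjugation genes, among them *Atg5*, *Atg7* and *Atg12*, lay between −0.12 and 0.07 over both sexes.

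Of the 5 Atg8 genes, *Map1lc3a*, which encodes LC3A, was called, in males. *Map1lc3a* (chr2:155276364-155278073) was 9.55 to 9.70 (median 9.61) in BPH/2J males, against 9.74 to 10.14 (median 9.95) in BPN/3J males, and these did not overlap. In females it was 9.06 to 9.43 (median 9.22) in BPH/2J, against 9.11 to 9.37 (median 9.28) in BPN/3J, one range inside the other. It fell by 0.32 in BPH/2J males (standard error 0.06, adjusted p = 0.0021 from limma), and its log2 fold change in females was −0.05 (standard error 0.0646, adjusted p = 0.663 from limma).

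*Map1lc3b*, *Gabarap*, *Gabarapl1* and *Gabarapl2* were not called in either sex, with log2 fold changes of −0.06 to 0.10. *Gabarapl2* was nearest to the threshold, at 0.09 in females (adjusted p = 0.0605 from limma) and 0.10 in males (adjusted p = 0.0907 from limma). In females it was 12.51 to 12.54 in BPH/2J, against 12.40 to 12.47 in BPN/3J, ranges that did not overlap. In males it was 12.54 to 12.70 in BPH/2J, against 12.47 to 12.57 in BPN/3J. Here too the annotation does not say which locus a probe set reads. That of *Gabarapl2*, a gene on chromosome 8, is numbered 10528546, beside *Atg9b* on chromosome 5 (10528567). The one that stands for *Map1lc3b*, also on chromosome 8, is numbered 10419354, beside *Atg14* on chromosome 14 (10419343).

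*Sqstm1*, which encodes the cargo receptor p62, was 12.39 to 12.47 (median 12.44) in BPH/2J males, against 12.19 to 12.38 (median 12.29) in BPN/3J males. In females both strains had a median of 12.12. It rose by 0.15 in BPH/2J males (standard error 0.0377, adjusted p = 0.0183 from limma) and had a log2 fold change of 0 in females (adjusted p = 0.955 from limma). *Nbr1*, the other cargo receptor measured, was called in neither sex.

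*Lamp1*, a glycoprotein gene of the lysosomal membrane, was 12.76 to 12.88 (median 12.82) in BPH/2J females, against 12.90 to 12.94 (median 12.93) in BPN/3J females. It fell by 0.10 in BPH/2J females (standard error 0.0319, adjusted p = 0.0456 from limma). That call was lost when any 1 of 10 of the 12 arrays was left out (all but BPH/2J female arrays 1 and 3), with adjusted p up to 0.0949 from limma. In males *Lamp1* was −0.08 (adjusted p = 0.176 from limma). *Lamp2*, its relative, and *Tfeb*, which encodes a transcription factor of autophagy and lysosome genes, were within −0.04 to 0.06 in both sexes.

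**Figure D3:**
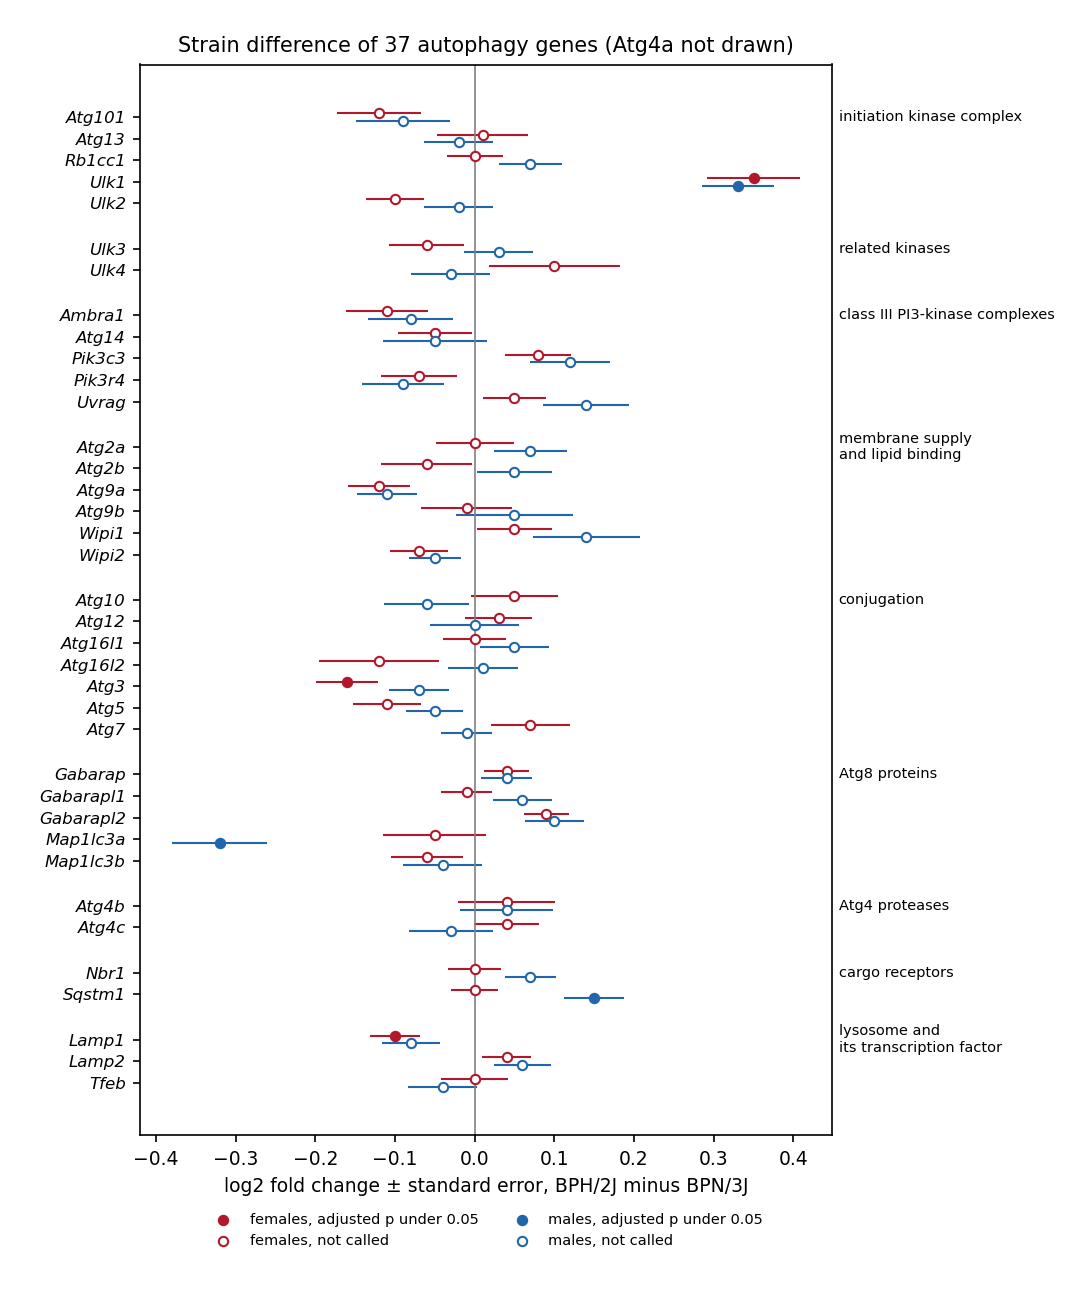
Log2 fold change between strains (BPH/2J minus BPN/3J, with its standard error, 6 mice per group) of 37 autophagy genes by role, in females and males. *Atg4a*, at −3.19 and −3.56, is not drawn. Filled points have an adjusted p under 0.05: *Ulk1* in both sexes, *Atg3* and *Lamp1* in females, *Map1lc3a* and *Sqstm1* in males.

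**Figure D4:**
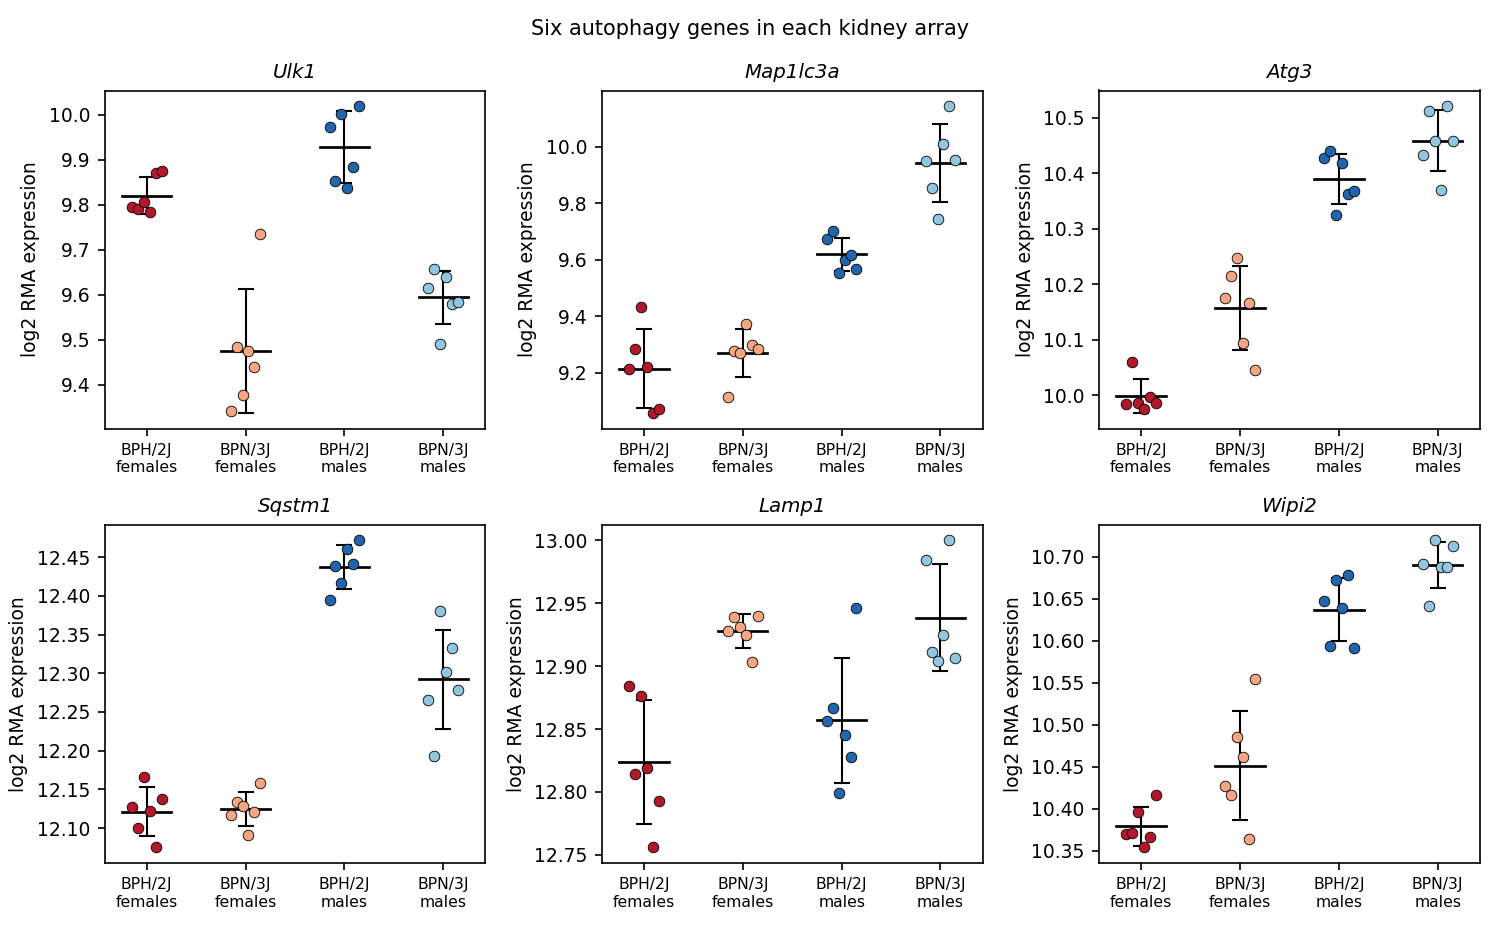
Log2 RMA expression of *Ulk1*, *Map1lc3a*, *Atg3*, *Sqstm1*, *Lamp1* and *Wipi2* in each array, by group, with 6 mice per group. Each point is 1 mouse, and lines and bars are the group mean and SD. *Ulk1* separates the strains in each sex, and *Wipi2* and *Sqstm1* separate the sexes in each strain.

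Levels of cell marker genes also differed between strains, for some lists with overlapping ranges. For 5 thick limb and distal tubule genes the medians were 12.49 in BPH/2J females, against 12.37 in BPN/3J females, and 12.17 in BPH/2J males, against 12.07 in BPN/3J males. For 7 proximal tubule genes they were lower in BPH/2J, at 12.68 against 12.76 in females and 12.74 against 12.78 in males. The ranges of the strains overlapped for both lists in each sex. Of the thick limb and distal tubule genes, 1 was called higher and 1 lower in BPH/2J females, and 2 higher and 1 lower in BPH/2J males. Of the proximal tubule genes, 1 was called, lower in BPH/2J, in each sex. In females the mean of 4 podocyte genes was 8.66 to 8.79 in BPH/2J, against 8.41 to 8.68 in BPN/3J. In males it was 8.29 to 8.39 in BPH/2J, against 7.78 to 8.19 in BPN/3J. For 4 collecting duct genes the medians of this mean were 10.57 in BPH/2J females, against 10.34 in BPN/3J females, and 10.27 in BPH/2J males, against 10.12 in BPN/3J males. The mean of 6 adipocyte genes was 8.07 to 9.14 in BPH/2J females, against 7.04 to 7.92 in BPN/3J females. In males it was 7.77 to 8.41 (median 7.95) in BPH/2J and 7.07 to 8.46 (median 7.98) in BPN/3J, which overlapped. The part of these cell types in the differences of the autophagy genes was not tested.

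Of 65 measured pathway genes outside the rule, in 4 lists, 13 (20%) were called between strains in females and 13 (20%) in males, where 14.5% and 15.2% of all probe sets were called. Of 17 genes of upstream control, 4 (23.5%) were lower in BPH/2J females and 3 (17.6%) in BPH/2J males, beside 6.48% and 7.7% of all probe sets, and none was called higher. *Mtor*, the kinase that holds the Ulk1 complex inactive when nutrients are plentiful, fell by 0.23 in BPH/2J females (standard error 0.0506, adjusted p = 0.00705 from limma) and by 0.48 in BPH/2J males (standard error 0.0638, adjusted p = 0.000128 from limma). *Mlst8*, its partner in both mTOR complexes, fell by 0.14 and 0.17.

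Of 20 measured genes of nucleation, elongation and fusion, 3 (15%) were lower in BPH/2J females. In BPH/2J males 1 was higher and 3 (15%) were lower. *Vps18*, a subunit of the complexes that tether vesicles to the lysosome, fell by 0.30 in females and by 0.25 in males. Of 9 measured receptors of selective autophagy, *Bnip3*, a mitophagy receptor, was called, at −0.14 in females (adjusted p = 0.0196 from limma), and none was called in males.

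Of 19 measured lysosome genes, 3 rose and 2 fell in BPH/2J females, and 4 rose and 2 fell in BPH/2J males. These are 26.3% and 31.6% of the list, beside the 14.5% and 15.2% of all probe sets called. *Gaa*, the lysosomal enzyme that breaks down glycogen, fell by 0.46 in females (standard error 0.0452) and by 0.54 in males (standard error 0.055). *Scarb2*, a lysosomal membrane receptor, rose by 0.38 and 0.22.

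More members were called between the sexes than between the strains, and most of these sex calls were lower in females. Over all probe sets too, more were called between the sexes (28.9% in BPH/2J and 29.2% in BPN/3J) than between the strains. Those strain shares were 14.5% in females and 15.2% in males. In BPH/2J 13 of 38 members (34.2%) were called, all lower in females, where 15.6% of all probe sets were called higher and 13.4% lower. In BPN/3J 15 were called, 11 lower (28.9%) and 4 higher (10.5%), where 14.4% of all probe sets were called higher and 14.8% lower. In both strains 11 members were called, each lower in females: *Atg3*, *Atg4a*, *Atg4b*, *Atg9a*, *Atg12*, *Atg13*, *Atg101*, *Map1lc3a*, *Sqstm1*, *Ulk2* and *Wipi2*. The share of all probe sets called lower in females of both strains was not counted. The median log2 fold change of the members was −0.0374 in BPH/2J, against −0.003 over all probe sets, and −0.0483 in BPN/3J, against −0.0205.

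*Atg4a* was lower in females of both strains, on the levels given above. It fell by 0.70 in BPN/3J females (standard error 0.0645, adjusted p = 3.33e-06 from limma), where female arrays all lay below male arrays. In BPH/2J it fell by 0.33 (standard error 0.0875, adjusted p = 0.011 from limma), and female and male arrays overlapped. There both sexes lay around the array medians. The other probe set gave −0.32 in BPH/2J (standard error 0.0799, adjusted p = 0.00827 from limma), without overlap. With the hepatocyte and adrenal cortex means as covariates, the BPH/2J value of the probe set that stands for *Atg4a* was −0.29 and was not called (adjusted p = 0.0794 from limma).

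*Atg4b* was lower by 0.27 on the log2 scale in females of both strains (standard errors 0.0617 in BPH/2J and 0.0574 in BPN/3J, adjusted p = 0.00483 and 0.0028 from limma). *Atg4c* had log2 fold changes of 0.01 in BPH/2J and −0.06 in BPN/3J and was not called.

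In BPH/2J *Map1lc3a* was 9.06 to 9.43 in females, against 9.55 to 9.70 in males. In BPN/3J it was 9.11 to 9.37 in females, against 9.74 to 10.14 in males. Every female array lay below every male array. It fell by 0.40 in BPH/2J females (standard error 0.0606, adjusted p = 0.000209 from limma) and by 0.67 in BPN/3J females (standard error 0.064, adjusted p = 4.39e-06 from limma).

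*Atg3* fell by 0.39 in BPH/2J females (standard error 0.0333, adjusted p = 1.55e-06 from limma) and by 0.30 in BPN/3J females (standard error 0.0433, adjusted p = 0.000155 from limma), again with no overlap. *Sqstm1* fell by 0.32 in BPH/2J females and by 0.17 in BPN/3J females, with 12.07 to 12.17 and 12.09 to 12.16 in these females, against 12.39 to 12.47 and 12.19 to 12.38 in males of the same strains.

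Among the genes for membrane supply and lipid binding, *Wipi2*, whose product binds the lipid made by Pik3c3 and recruits Atg16l1, was 10.35 to 10.42 in BPH/2J females, against 10.59 to 10.68 in BPH/2J males. It was 10.36 to 10.55 in BPN/3J females, against 10.64 to 10.72 in BPN/3J males. It fell by 0.26 and 0.24 in females of the 2 strains, though a second *Wipi2* probe set, at −0.13 and −0.18, was not called (adjusted p = 0.359 and 0.077 from limma). That second probe set was dim, with a mean of 6.30, below the array medians of 6.89 to 6.97. The mean of the one that stands for *Wipi2* was 10.54. *Atg9a* fell by 0.25 and 0.24. *Atg2a*, a lipid transfer protein gene, fell by 0.21 in BPH/2J females and was −0.14 in BPN/3J (adjusted p = 0.0542 from limma).

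In the initiation complex, *Atg101* fell by 0.27 in BPH/2J females and 0.25 in BPN/3J females, *Atg13* by 0.18 and 0.21, and *Ulk2* by 0.22 and 0.14. *Ulk1* was not called between sexes, at −0.11 in BPH/2J (adjusted p = 0.0733 from limma) and −0.12 in BPN/3J (adjusted p = 0.166 from limma). The 2 probe sets of *Rb1cc1* disagreed, but the second was dim. Its mean was 6.84, near the array medians of 6.89 to 6.97, against 9.96 for the one that stands for the gene. In BPH/2J the one that stands for the gene gave 0.02 and the other −0.20 (adjusted p = 0.0352 from limma), and in BPN/3J they gave 0.09 and −0.19 (adjusted p = 0.118 and 0.0938 from limma).

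In the conjugation chain, *Atg12*, the ubiquitin-like protein joined to Atg5, fell by 0.16 in BPH/2J females and 0.19 in BPN/3J females. The BPH/2J call was lost without BPH/2J female array 2, 3 or 4 or male array 6 (adjusted p up to 0.0571 from limma). *Atg5* fell by 0.15 in BPH/2J females and was −0.10 in BPN/3J (adjusted p = 0.0591 from limma).

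The 4 members called higher in females were found in BPN/3J. *Atg16l2*, a relative of the conjugation scaffold Atg16l1, was 6.67 to 7.08 in BPN/3J females, against 6.61 to 6.73 in BPN/3J males, and rose by 0.25 (adjusted p = 0.00736 from limma). *Gabarapl1* was 13.21 to 13.32 in BPN/3J females, against 13.05 to 13.13 in BPN/3J males, and rose by 0.15 (adjusted p = 0.00332 from limma). *Pik3c3*, the catalytic subunit of the lipid kinase, rose by 0.13 and *Ulk3*, a kinase related to *Ulk1*, by 0.15 (adjusted p = 0.043 and 0.0413 from limma). Leaving out 1 array removed the call of *Pik3c3* for 9 of the 12 arrays and that of *Ulk3* for 8, with adjusted p up to 0.0906 and 0.0887 from limma.

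**Figure D5:**
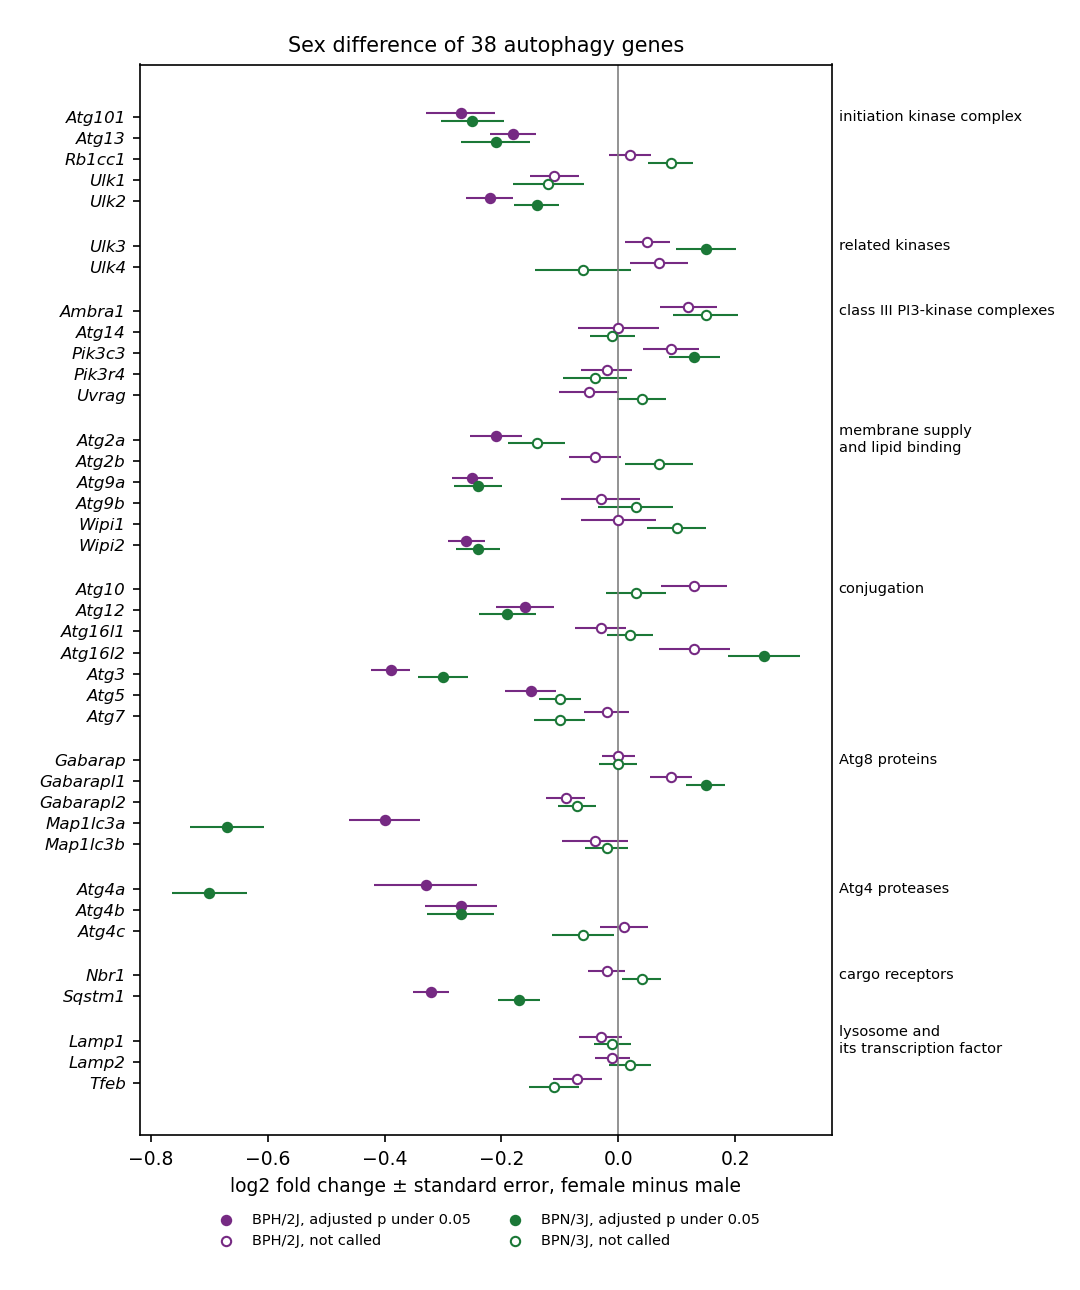
Log2 fold change between sexes (female minus male, with its standard error, 6 mice per group) of all 38 autophagy genes by role, in BPH/2J and BPN/3J. Filled points have an adjusted p under 0.05, 13 of them in BPH/2J, all below 0, and 15 in BPN/3J, 11 of them below 0.

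Transcripts of other cells went with sex as well. For the 8 adrenal cortex genes the mean had medians of 9.66 in BPH/2J females, against 6.42 in BPH/2J males, and 9.15 in BPN/3J females, against 6.19 in BPN/3J males. The ranges overlapped widely, with 5.39 to 9.85 in BPH/2J females, against 5.45 to 8.43 in BPH/2J males, and highest values of 10.23 in BPN/3J females, against 8.81 in BPN/3J males. With this mean and that of the hepatocyte genes as covariates, 11 members were called in BPH/2J, all lower in females, and 14 in BPN/3J, 11 of them lower. In BPH/2J the mean of 5 thick limb and distal tubule genes was 12.43 to 12.52 in females, against 12.11 to 12.24 in males. In BPN/3J it was 12.31 to 12.44 in females, against 11.98 to 12.15 in males. The podocyte and collecting duct means were higher in females too. Of 7 proximal tubule genes, 4 were called higher and 3 lower in BPH/2J females, and 4 higher and 2 lower in BPN/3J females. The adipocyte mean had medians of 8.81 in BPH/2J females, against 7.95 in BPH/2J males, and 7.56 in BPN/3J females, against 7.98 in BPN/3J males. The part of kidney cell makeup in the sex differences was not tested.

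Outside the rule, *Mtor* differed most between sexes among the upstream genes, and fell by 0.57 in BPH/2J females (standard error 0.0557) and by 0.82 in BPN/3J females (standard error 0.0595). *Mitf*, a transcription factor gene related to *Tfeb*, rose by 0.42 and 0.58. Of the 17 upstream genes, 3 were higher and 3 lower in BPH/2J females, and 5 were higher and 3 lower in BPN/3J females. Of the 20 genes of nucleation, elongation and fusion, 1 was higher and 4 were lower in BPH/2J females, and 4 were lower in BPN/3J females. Of the 9 selective receptors, 3 were higher and 1 lower in females of each strain. Of the 19 lysosome genes, 4 were higher and 7 lower in BPH/2J females, and 5 were higher and 5 lower in BPN/3J females. Over the 65 genes of the 4 lists, 26 (40%) were called in each strain, where 28.9% of all probe sets were called in BPH/2J and 29.2% in BPN/3J. For the lysosome genes alone the shares were 57.9% in BPH/2J and 52.6% in BPN/3J.

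Whether the strain difference itself differed between the sexes was tested as an interaction on all 24 arrays, the difference in females minus that in males. By limma 0 of 38 members were called, where 1.76% of all probe sets were. At an unadjusted p under 0.05 there were 3, and the share of all probe sets at that level was not counted. Trend and robust eBayes settings called 1, *Sqstm1*. *Atg4a* had an interaction of 0.37 (standard error 0.112, adjusted p = 0.112 from limma), *Map1lc3a* of 0.27 (standard error 0.0891, adjusted p = 0.153 from limma) and *Sqstm1* of −0.15 (standard error 0.0419, adjusted p = 0.0751 from limma). The calls of *Map1lc3a* and *Sqstm1* in males alone, and of *Atg3* and *Lamp1* in females alone, are thus not shown to differ between the sexes. Outside the rule, 1 of the 9 selective receptors was called in the interaction, *Bnip3* at −0.20 (standard error 0.0473, adjusted p = 0.0269 from limma).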

How the data were processed

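Kidney RNA of 24 mice was hybridised to Affymetrix Mouse Gene 1.0 ST arrays. Normalisation by RMA was done by the authors, whose deposited log2 values were taken unchanged. No RMA version is given in the sources used here. Symbols came from the platform's probe annotation, in which 21159 of 28853 probe sets (73.3%) carry 1 symbol, 1881 several and 5813 none. Positions and promoters are those of RefSeq (GRCm38.p6). Each comparison was fitted with limma 3.58.1 (R 4.3.3) on its 12 arrays, the interaction on 24, over all probe sets with Benjamini-Hochberg adjustment. The study's methods used a two-sided t-test at a Bonferroni threshold, run here as an alternative.

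The genes and gene lists were chosen with earlier results of these data known. Full values were given for the Atg4 proteases, members called in both strain comparisons in 1 direction, members called in the interaction, and the 3 largest called changes per comparison. Other members were named by role, with their log2 fold changes, and levels where called or near the threshold. The scripts were tested on simulated data. Alternatives were a common median, quantile normalisation, a filter on dim probe sets, trend and robust eBayes, the t-test, a fit to all arrays, covariates, a replicate block and leaving arrays out. Python 3.11.15 with matplotlib 3.10.9 drew the figures.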

Additional observations from a re-analysis of the deposited data

Results flagged for a closer look

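In 2 of 24 groups of 6 arrays (6 genes with full values in 4 groups), 1 array stood apart from the other 5 by more than Dixon's critical value of 0.625, a test that chance passes in about 5% of groups. *Atg3* was 10.06 in BPH/2J female array 2, with the next array at 10 and the lowest at 9.98, a gap of 0.738 of the range. *Ulk1* was 9.73 in BPN/3J female array 6, with the next array at 9.48 and the lowest at 9.34, a gap of 0.638 of the range.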

How the results depend on the processing

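*Atg4a* and *Ulk1* were called between strains, in the same direction, under all 21 settings in females and all 20 in males. Between strains in females, 2 members (*Atg4a* and *Ulk1*) were called without BPN/3J female arrays 2 and 5, and 3 to 4 with single arrays left out. At the Bonferroni threshold 2 were called in females in the fit to all 24 arrays, and 1 to 2 with single arrays left out (2, with *Ulk1*, without BPN/3J female array 6). In males 7 members were called by the methods' t-test and 7 in the fit to all 24 arrays, and at the Bonferroni threshold 2 with dim probe sets left out, with trend and robust eBayes and in the fit to all 24 arrays. In the interaction, 1 member (*Sqstm1*) was called with dim probe sets left out and with trend and robust eBayes, and 0 to 1 with single arrays left out (1 without BPN/3J male array 3). The mean over members in place of the median was −0.0929 in females and −0.0846 in males, since it takes in *Atg4a*. Over all settings the counts ranged over 2 to 6 for strain in females and 3 to 7 for strain in males. They ranged over 11 to 17 for sex in BPH/2J and 13 to 20 in BPN/3J. The shares of all probe sets called under each setting are not given here. Shifting arrays to a common median gave 2 higher and 16 lower members in BPN/3J females, and quantile normalisation gave 2 higher and 13 lower in BPH/2J females and 2 higher and 2 lower between strains in females. *Atg4a*, *Atg4b*, *Atg4c*, *Atg3*, *Map1lc3a* and *Ulk1* were refitted singly under both scalings, the block, the covariates, the t-test and left-out arrays, and 2 values lost a call, *Atg3* in females and *Atg4a* between BPH/2J sexes. Over all settings *Ulk1* gained a call between sexes in 4 of 20 in BPH/2J and in 1 of 21 in BPN/3J. The cause of these shifts was not tested.

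The replicate numbers were not taken to pair the mice, since in no comparison did every pair of same-numbered deviations correlate above 0.1. That rule asks for all 6 pairs, so it cannot decide on a pairing of some of them. The correlations ran from −0.567 to 0.343 between strains in females (4 of 6 pairs above 0.1, 4 best with their own number), from −0.272 to 0.0212 in males (0 of 6), from −0.132 to 0.168 between sexes in BPH/2J (3 of 6) and from −0.345 to 0.444 in BPN/3J (3 of 6). With a replicate block 3 members were called between strains in females, 3 in males, 11 between sexes in BPH/2J, 14 in BPN/3J and 0 in the interaction.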
